A study of Mus musculus with 24 samples.

Results

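Expression of 9 genes for nucleoside uptake and purine breakdown was followed in the distal jejunum of mice, out of 56691 genes in the deposited table. They are the concentrative nucleoside transporters Slc28a1, Slc28a2 and Slc28a3, the equilibrative transporter Slc29a1, the ectoenzymes Enpp3 and Nt5e, and the purine breakdown enzymes Ada, Pnp and Xdh. The 9 genes were chosen from measured values of these same libraries, with Slc28a1 as the lead gene. The contrast that brought in each gene is not recorded, and contrasts that share a group of mice share its values. Differences of the 9 genes are therefore given as descriptions, and a count of genes past a threshold is printed beside the share of all genes past it without further reading.

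The 24 libraries came from male and female C57BL/6 mice, 1 library per mouse and 3 mice in each of 8 groups. Wild type mice and Ptk6-/- mice, which carry a germline disruption of the kinase gene Ptk6 in every cell, were given regular drinking water as controls or water with 100 mM succinate for 7 days. Mice of both genotypes and treatments were 9 to 11 weeks old at the end and, per the study's methods, were age-matched but came from different litters. Whole distal jejunum was sequenced, so that fewer cells of a type and less RNA per cell cannot be told apart.

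Ptk6 had 7 to 61 counts in the 12 libraries labelled Ptk6-/- and 284 to 2405 in the 12 wild type libraries. Total counts per library were 8080321 to 52824743. The enterocyte markers summed to 6097 to 23915 FPKM (fragments per kilobase of transcript, scaled to the depth of the library) and the pancreas markers to 0.481 to 2.97 FPKM. A total of 3 libraries stood apart. Rn18s-rs5, a ribosomal RNA gene, held 51.2% of all counts in the first replicate of wild type male controls (95% Wilson interval 51.20% to 51.24%) and 29.7% in replicate 1 of the Ptk6-/- males on succinate (29.68% to 29.74%), which also had the lowest total. These intervals cover counting error only. The share was 0.108% to 4.49% in the other 22 libraries. The library labelled wild type female succinate replicate 2 held 3248 FPKM of heart markers, against 7.24 to 36.1 in the other 23 libraries. It also held 9.63 FPKM of Y-linked genes, against at most 0.102 in the other 11 female libraries.

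Nucleosides reach the intestinal lumen from digested nucleic acids and from extracellular nucleotides. Ectoenzymes on the cell surface strip phosphates from nucleotides, sodium-coupled SLC28 transporters on the brush border pull nucleosides into the cell against a gradient, and SLC29 transporters let them pass in either direction. Inside the cell purine nucleosides are deaminated and split to bases, and xanthine dehydrogenase oxidizes these to urate. SLC28A1 prefers pyrimidine nucleosides, SLC28A2 prefers purine nucleosides and uridine, and SLC28A3 takes both kinds.

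The promoters of the 3 SLC28 genes are shown because the results turn on these transporters. Each window runs from 250 bases before to 50 bases after the annotated start, 5′ to 3′ on the gene's strand, from RefSeq's annotation of GRCm38.p6. Of the 9 genes, 8 had such a window, and Xdh had none. Capitals mark matches of TTCNNNNGAA or TTCNNNGAA, palindromic letters that STAT transcription factors can bind, which read the same on both strands and did not overlap here.
Slc28a1, chr7:81114549-81114848, plus strand: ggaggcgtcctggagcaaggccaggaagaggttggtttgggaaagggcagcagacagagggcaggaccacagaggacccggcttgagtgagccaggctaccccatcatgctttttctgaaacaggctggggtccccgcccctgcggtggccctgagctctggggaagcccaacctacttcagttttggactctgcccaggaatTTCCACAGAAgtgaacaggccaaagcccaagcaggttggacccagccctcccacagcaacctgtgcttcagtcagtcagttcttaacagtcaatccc
Slc28a2, chr2:122426185-122426484, plus strand: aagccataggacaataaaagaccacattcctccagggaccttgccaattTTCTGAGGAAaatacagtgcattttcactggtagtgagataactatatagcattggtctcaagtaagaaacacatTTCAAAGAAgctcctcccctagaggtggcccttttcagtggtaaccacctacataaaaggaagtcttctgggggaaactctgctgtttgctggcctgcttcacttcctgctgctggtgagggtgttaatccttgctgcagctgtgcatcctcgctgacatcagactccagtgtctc
Slc28a3, chr13:58610828-58611127, minus strand: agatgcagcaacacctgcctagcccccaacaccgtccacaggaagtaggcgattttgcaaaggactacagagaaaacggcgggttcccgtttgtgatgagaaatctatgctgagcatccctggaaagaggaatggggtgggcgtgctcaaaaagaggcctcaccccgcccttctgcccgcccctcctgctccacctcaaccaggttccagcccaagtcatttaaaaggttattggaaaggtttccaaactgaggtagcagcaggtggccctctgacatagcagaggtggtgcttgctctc
The Slc28a1 window held TTCCACAGAA, which starts 47 bases before the gene's start. The Slc28a2 window held TTCTGAGGAA from 201 bases before the start and TTCAAAGAA from 126 bases before it. The Slc28a3 window held neither motif. Among the other windows, the TTCNNNGAA motif was in that of Ada and neither motif was in those of Slc29a1 (8 windows), Enpp3, Nt5e and Pnp. Of all 32851 windows of this length, 6.95% held TTCNNNNGAA and 8.30% held TTCNNNGAA, so a match is a description of letters and not a site.

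Compared per length, in FPKM over the 24 libraries, Ada was the highest of the 9 genes at 34.8 to 339.7 (median 135). Pnp followed at 12.4 to 84.1 (median 60.5), Slc28a2 at 5.10 to 74.0 (median 37.6) and Xdh at 4.30 to 57.7 (median 27.1). Enpp3 ranged over 0.643 to 25.4 (median 8.77) and Slc29a1 over 0.931 to 7.55 (median 4.66). Slc28a1 ranged over 0.416 to 37.9 (median 3.97), Nt5e over 0.356 to 11.8 (median 3.87) and Slc28a3, the lowest, over 0.624 to 2.71 (median 1.72). The ranges of neighbours in this order overlapped. Most of the low ends came from the 2 libraries rich in Rn18s-rs5. Over the 21 libraries without the 3 that stood apart the lowest values were 76.9 for Ada, 44.2 for Pnp, 22.970 for Slc28a2, 5.71 for Xdh, 4.56 for Enpp3, 3.22 for Slc29a1, 1.04 for Slc28a1, 1.52 for Nt5e and 0.797 for Slc28a3, in FPKM. The highest value moved for Slc29a1 alone, to 5.51. In CPM (counts scaled to a common library size, TMM-normalized over the 24 libraries) the highest library of Slc28a1 was 43.7 times the lowest, against 10.4 times for Xdh and 2.63 times for Pnp, which varied least. Without the 3 libraries that stood apart the ratio was again 43.7 for Slc28a1, 4.23 in place of 9.97 for Enpp3 and 1.74 for Slc29a1, the smallest.

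**Figure D1:**
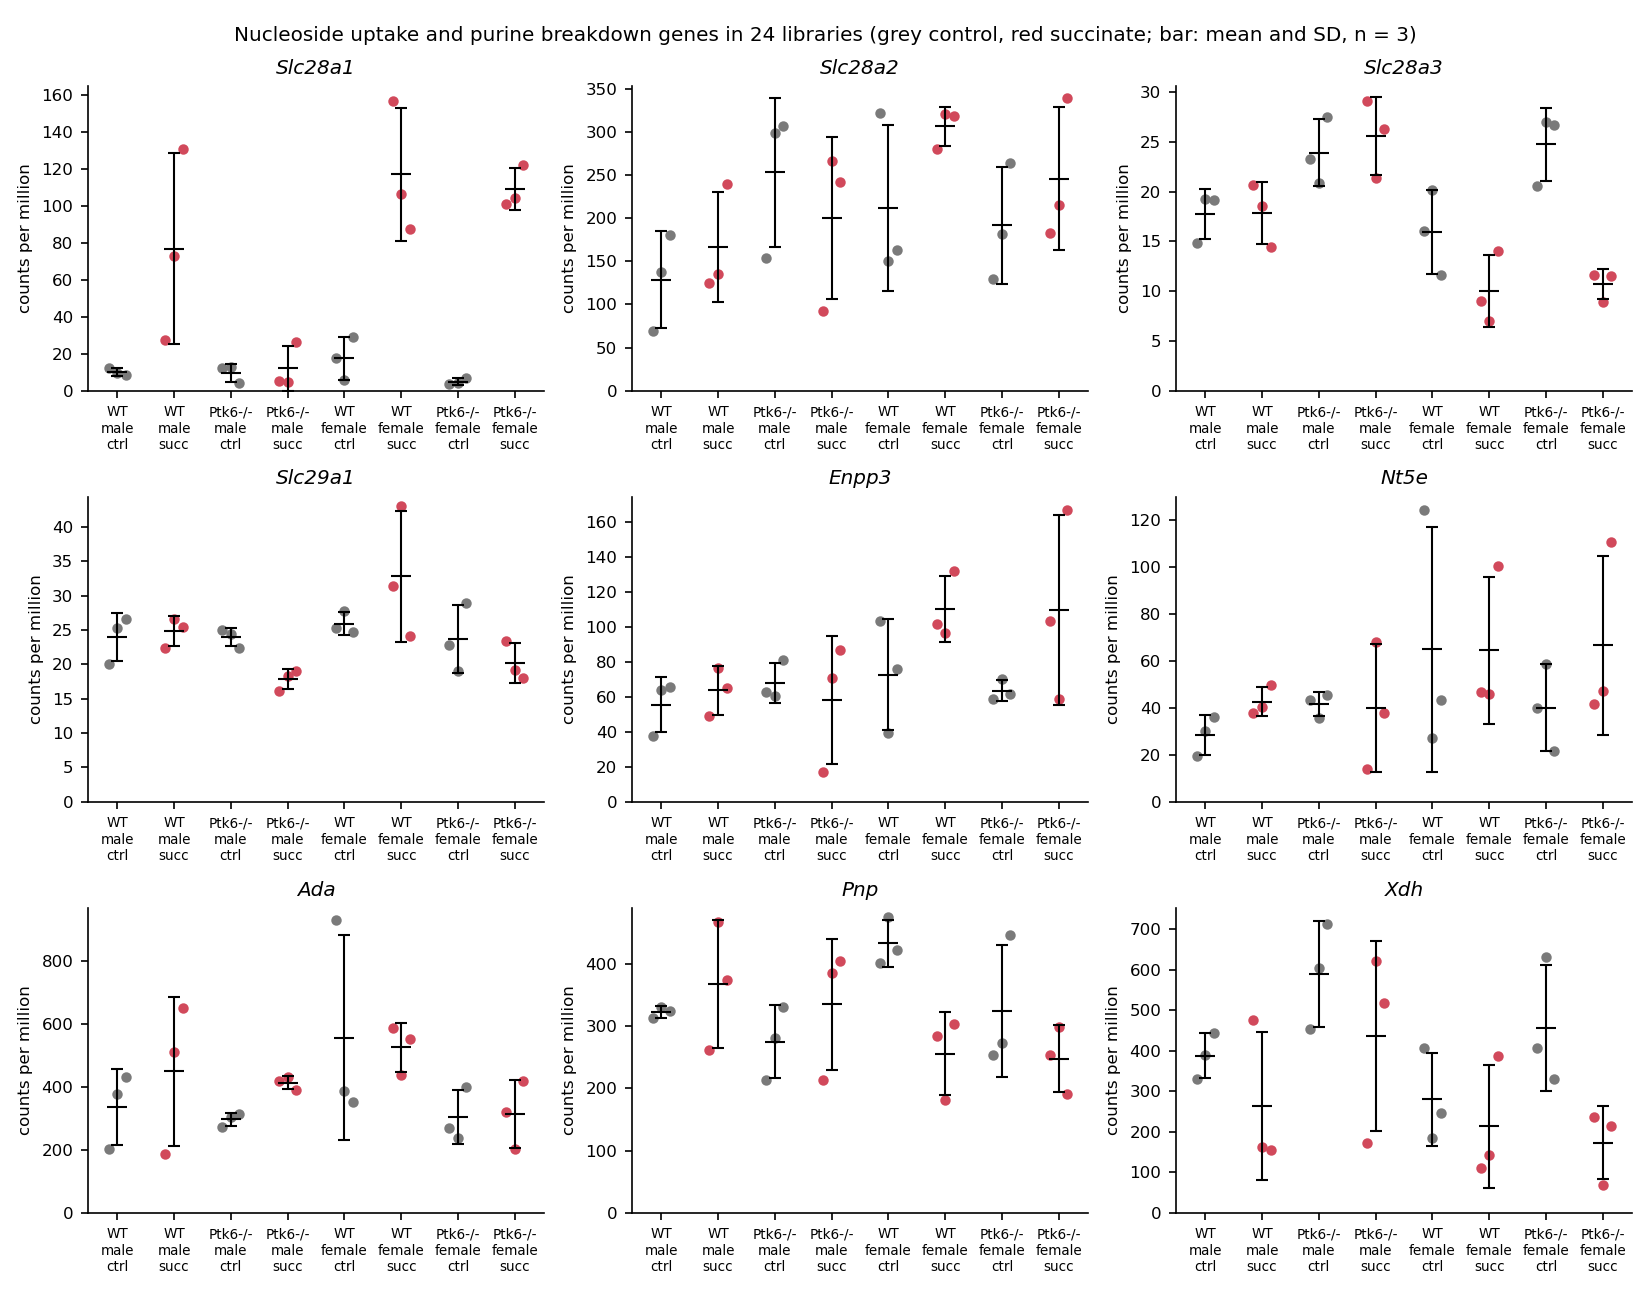
Each panel plots the CPM of 1 gene in the 24 libraries by group, with grey points for control mice, red points for succinate mice and black bars for the mean and SD of 3 mice (WT, wild type; ctrl, control; succ, succinate). Slc28a1 stood at 3.59 to 29.1 CPM in the control libraries and at 27.2 to 157 CPM in 3 of the 4 succinate groups, the exception being the Ptk6-/- males.

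Slc28a1, which carries pyrimidine nucleosides into the enterocyte, was higher with succinate in wild type males and in females of both genotypes, and overlapped with controls in Ptk6-/- males. The gene lies at chr7:80764547-80820164 on the plus strand (deposited positions, GRCm39 per the submitters' processing notes) and overlaps Ndufs6b on the other strand. It had, in wild type males, 12.5, 9.69 and 8.48 CPM in controls (raw counts 155, 558 and 419) and 27.2, 72.9 and 131 CPM with succinate (raw counts 1549, 3604 and 5417). Ptk6-/- males had 12.1, 12.9 and 4.18 CPM in controls and 5.49, 4.89 and 26.1 CPM with succinate. Among succinate mice, the wild type males all lay above the Ptk6-/- males, whose highest library was 26.1 CPM against 27.2 CPM for the lowest wild type library.

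In wild type females Slc28a1 had 17.6, 5.94 and 29.1 CPM in controls and 157, 107 and 87.5 CPM with succinate. In Ptk6-/- females it had 3.59, 3.93 and 6.99 CPM in controls (raw counts 152, 185 and 242) and 101, 104 and 122 CPM with succinate (raw counts 5626, 5274 and 7188). The 2 female genotypes overlapped with succinate, and the mean of the Ptk6-/- controls was lower, at 4.84 ± 1.87 CPM against 17.5 ± 11.6 CPM in wild type controls (SD, n = 3). The highest Ptk6-/- control, at 6.99 CPM, overlapped with the lowest wild type control, at 5.94 CPM.

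Ordered by mean CPM (± SD, n = 3), Slc28a1 was highest in wild type females on succinate at 117 ± 35.9, then in Ptk6-/- females on succinate at 109 ± 11.2 and wild type males on succinate at 76.9 ± 51.8. Below these came wild type female controls at 17.5 ± 11.6, Ptk6-/- males on succinate at 12.2 ± 12.1, wild type male controls at 10.2 ± 2.08, Ptk6-/- male controls at 9.73 ± 4.82 and Ptk6-/- female controls at 4.84 ± 1.87. Each group overlapped with its neighbours in this order.

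On the fitted scale the log2 fold change of Slc28a1 with succinate was 2.91 (SE 0.54) in wild type males, 0.35 (SE 0.70) in Ptk6-/- males, 2.76 (SE 0.57) in wild type females and 4.47 (SE 0.36) in Ptk6-/- females. These correspond to 7.50-fold, 1.27-fold, 6.79-fold and 22.2-fold levels relative to controls. Without the library that stood apart it was 3.10 in wild type males, 0.63 in Ptk6-/- males and 2.84 in wild type females. The positive value in Ptk6-/- males rested on replicate 3 of the succinate mice, without which it was -0.86. Averaged over the 4 sex and genotype groups it was 2.63 (SE 0.32), or 6.18-fold, and 2.77 without the 3 libraries.

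**Figure D2:**
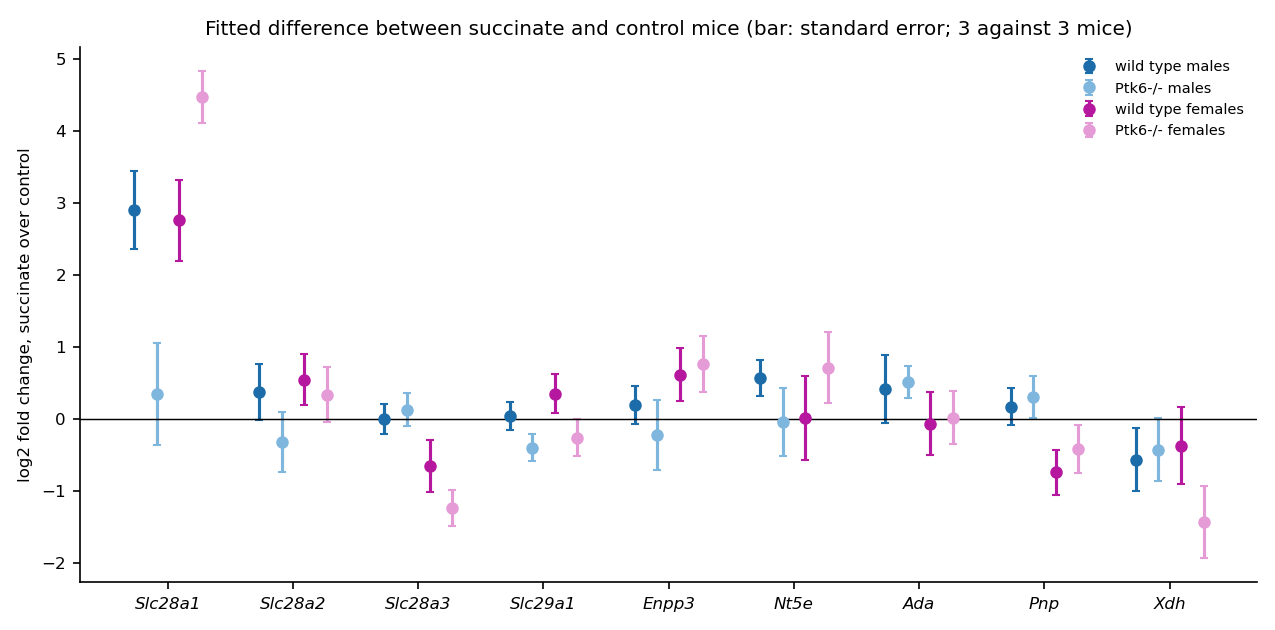
The log2 fold change of each of the 9 genes between succinate and control mice is plotted with its standard error for the 4 combinations of sex and genotype, 3 against 3 mice each. Slc28a1 lies between 0.35 in Ptk6-/- males and 4.47 in Ptk6-/- females, and the other 8 genes lie between -1.43 and 0.76.

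Of the 9 genes, Slc28a1 was the 1 past both thresholds (a Benjamini-Hochberg adjusted p under 0.05 from edgeR's quasi-likelihood test over all genes and a fold change of at least 2) in Ptk6-/- females, where 0.0879% of all genes tested passed, and in the average over groups, where 0.728% passed. Its adjusted p in these edgeR fits was 0.0125 and 1.17e-04, values given as descriptions, since the gene was chosen from these libraries. No gene of the 9 and no other gene passed in wild type males (0% of 19183), Ptk6-/- males (0%) or wild type females (0%), where 781, 1470 and 1466 genes (4.07%, 7.75% and 7.77%) had an unadjusted p under 0.05. Of the 9 genes, 1, 0 and 2 had such a p in these 3 comparisons. DESeq2 called Slc28a1 in wild type males, wild type females and Ptk6-/- females, beside 0.166%, 0.952% and 1.44% of all genes, and in the average over groups (1.12%). Voom called it in wild type males and Ptk6-/- females, beside 7.85% and 0.983%, and in the average over groups (3.60%).

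The edgeR call in Ptk6-/- females turned on single libraries and was lost with a replicate block, as given in the last section. In Ptk6-/- females the adjusted p of Slc28a1 rose to 0.192 and 0.129 without control replicates 1 and 2, and to 0.0749 and 0.0783 without succinate replicates 2 and 3, with a log2 fold change of 4.30 to 4.83 throughout. For wild type males it fell from 0.947 to 0.00401 without replicate 1 of the succinate mice, and in wild type females from 0.369 to 0.0489 without replicate 3, fits in which 5.80% and 3.23% of all genes were called. Relative to the mean of the 24 libraries, log2 CPM changed by 0.166 per doubling of gene length in that wild type male replicate. It changed by -0.159 and -0.120 in the other succinate libraries of wild type males and by -0.0443 to 0.00559 in their controls. The part of this trend in the calls was not tested. The average over groups kept its call without each of the 24 libraries in turn.

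Overlap was judged in CPM normalized within the libraries of each comparison, which differ slightly from the CPM printed here. The libraries of Slc28a1 did not overlap between succinate and control mice in wild type males, wild type females and Ptk6-/- females. Libraries that did not overlap were found for 2 of the 9 genes (Slc28a1 and Nt5e) in wild type males, against 9.18% of all genes tested. The count was 2 (Slc28a1 and Pnp) against 13.1% in wild type females, 3 (Slc28a1, Slc28a3 and Xdh) against 21.2% in Ptk6-/- females and 2 (Ada and Slc29a1) against 23.8% in Ptk6-/- males. Over the 9 genes the log2 fold change had a median of 0.19, 0.01, 0.02 and -0.04 in the same order, beside 0.02, 0.03, -0.04 and -0.10 over all genes tested.

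Markers of tuft cells, the chemosensory cells that detect succinate, moved with Slc28a1. The sum of the 10 tuft markers was 4.12 to 10.2 FPKM in wild type male controls and 16.4 to 21.1 with succinate, 7.29 to 9.38 and 1.33 to 14.2 in Ptk6-/- males, 6.93 to 11.8 and 24.8 to 67.9 in wild type females, and 7.70 to 9.42 and 41.9 to 92.1 in Ptk6-/- females. The lowest sums in wild type male controls and in Ptk6-/- males on succinate were those of the libraries rich in Rn18s-rs5, without which the ranges were 9.19 to 10.2 and 8.25 to 14.2 FPKM. Il25 was listed at 0 in every library of the male control groups of both genotypes and of the Ptk6-/- males on succinate, and the other 9 tuft markers were at 0 throughout no group. Of the tuft markers tested, 6 of 8 in wild type males, 1 of 9 in Ptk6-/- males, 8 of 9 in wild type females and 9 of 9 in Ptk6-/- females were higher in every succinate library than in every control library. Several other marker sums did not overlap either, though in each list only some or none of the genes did so one by one. The smooth muscle markers summed to 302 to 539 FPKM in wild type male controls and 544 to 1489 with succinate, to 688 to 859 and 938 to 1759 in wild type females, and to 507 to 880.4 and 1006 to 1333 in Ptk6-/- females, while 0 of 5, 1 of 5 and 0 of 5 of these genes were higher in every succinate library. In wild type males the lymphoid follicle markers summed to 7.00 to 11.96 FPKM in controls and 36.6 to 39.9 with succinate, and 3 of 6 genes were higher throughout. In wild type females the enterocyte markers summed to 19574 to 23915 and 11154 to 13978 FPKM and the villus tip enterocyte markers to 1266 to 1690.1 and 1729 to 3734, with 3 of 10 enterocyte genes lower and 0 of 4 villus tip genes higher throughout. In Ptk6-/- females the crypt and cycling markers summed to 33.3 to 126 and 140.5 to 151 FPKM, the Paneth markers to 2915 to 7665 and 7748 to 17369.6, and the proximal small intestine markers to 28.8 to 34.1 and 6.57 to 18.3, with 1 of 5 and 2 of 4 genes higher and 2 of 4 lower throughout, and 1 of 4 villus tip genes were lower there. The T cell and ileum sums were also lower in wild type females, as given below for Pnp. In Ptk6-/- males the heart markers summed to 8.41 to 15.5 FPKM in controls and 16.8 to 29.0 with succinate (4 of 5 genes higher throughout). The proximal small intestine markers summed there to 28.9 to 38.2 and 2.71 to 26.4 (2 of 5 lower). Without the library rich in Rn18s-rs5 the succinate ranges were 16.8 to 19.4 and 24.6 to 26.4. The part of these cells in the level of Slc28a1 was not tested.

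**Figure D3:**
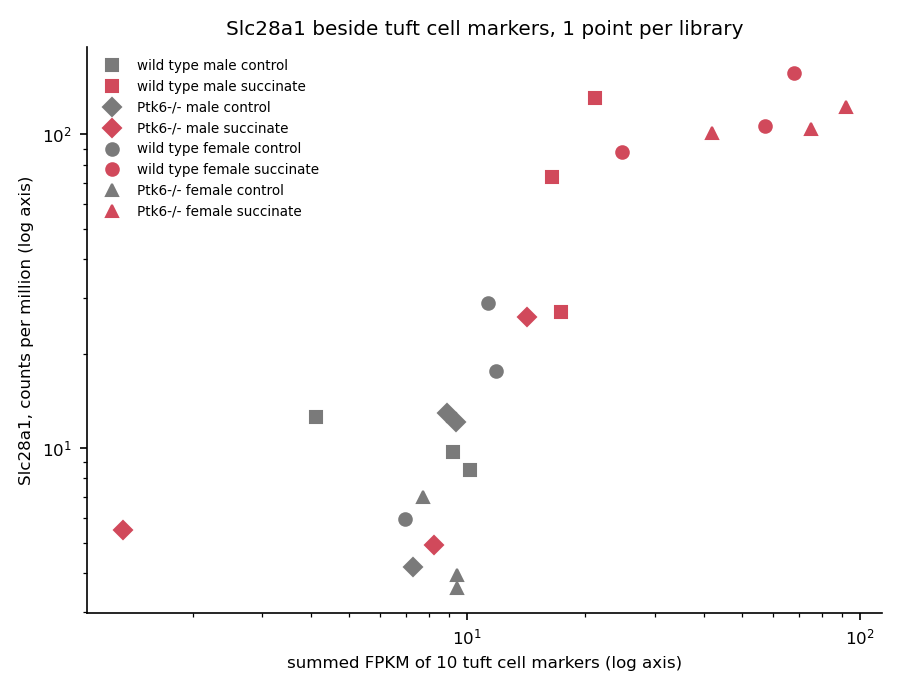
The CPM of Slc28a1 is plotted against the summed FPKM of 10 tuft cell markers for the 24 libraries on log axes, with grey symbols for control mice, red symbols for succinate mice and a symbol shape for each sex and genotype. The libraries from wild type females and Ptk6-/- females on succinate sit at the upper right, with 24.8 to 67.9 and 41.9 to 92.1 FPKM, and 2 of the 3 Ptk6-/- males on succinate sit among the controls or to their left.

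Over the 24 libraries the log2 CPM of Slc28a1 and the log2 sum of the tuft markers had r = 0.84 (r = 0.86 over 21 libraries). The points share the group differences from which the gene was chosen. The named genes most like Slc28a1 over the 24 libraries, by Pearson's r of log2 CPM among genes with a mean of at least 1 CPM, were Acss1 (r = 0.93), Me1 (0.93), Aqp7 (0.92), Sh2d6 (0.90), Irag2 (0.89), Avil (0.89), Gsdmc4 (0.88) and Cd55 (0.88). Acss1 makes mitochondrial acetyl-CoA from acetate, Me1 is the cytosolic malic enzyme, Aqp7 is a glycerol channel, Cd55 restrains complement, and Avil is itself 1 of the 10 tuft markers. Without the 3 libraries the values were 0.87 to 0.93.

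Between genotypes, Slc28a1 in control males had a log2 fold change of -0.09 (SE 0.40), Ptk6-/- over wild type, which was 0.13 without replicate 1 of the wild type controls, and its libraries overlapped. In control females it was -1.83 (SE 0.56) with an adjusted p of 0.369 in edgeR's test. That adjusted p was 0.0490, past the threshold, without replicate 3 of the Ptk6-/- controls, where 9.65% of all genes were called. The change of log2 CPM per doubling of gene length was -0.156 in that replicate and 0.118 and 0.191 in the other Ptk6-/- controls. It was -0.150 to -0.0257 in the wild type controls. Among succinate mice the log2 fold change of Slc28a1 was -2.62 (SE 0.78) in males (adjusted p = 1.000 in edgeR) and -0.10 (SE 0.32) in females, with a 95% interval of -0.85 to 0.64 in females. In males on succinate the sums of 3 marker lists were also lower in every Ptk6-/- library, at 1.33 to 14.2 FPKM against 16.4 to 21.1 in wild type for tuft cells (4 of 9 genes lower throughout), 1709.6 to 3463 against 6044 to 7167 for Paneth cells (1 of 4) and 2.60 to 13.4 against 36.6 to 39.9 for lymphoid follicles (6 of 6). Without the Ptk6-/- library rich in Rn18s-rs5 the Ptk6-/- ranges were 8.25 to 14.2, 2520 to 3463 and 4.86 to 13.4 FPKM. In control females the villus tip enterocyte sum was lower, at 869.5 to 1198 against 1266 to 1690.1 FPKM (0 of 4 genes lower and 1 higher throughout), and the lymphoid follicle sum higher, at 7.93 to 25.6 against 4.62 to 7.53 (2 of 6). Their part in these differences was not tested. The difference between genotypes in the succinate effect was -2.53 (SE 0.95) in males and 1.75 (SE 0.66) in females on the log2 scale, with edgeR's adjusted p-values of 0.993 and 0.752. The difference of these between females and males was 4.31 (SE 1.24), with an adjusted p of 0.479 in edgeR. No gene of the 9 was called in these interactions by edgeR, DESeq2 or voom, and 1 of the 9 had an unadjusted p under 0.05 in each. Of all genes, 0% were called in males, 0% in females and 0% between the sexes, with 3.80%, 6.46% and 5.99% at an unadjusted p under 0.05.

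Slc28a2, the purine-preferring transporter, lay at chr2:122256958-122291618 on the plus strand and was the most abundant of the family per length. It had 69.0, 137 and 180.2 CPM in wild type male controls and 125, 135 and 239.7 CPM with succinate. Ptk6-/- males had 154, 299 and 307 CPM in controls and 93.0, 267 and 242 CPM with succinate. The groups of males overlapped in both genotypes, and replicate 1 of the wild type controls, the library rich in Rn18s-rs5, was the lowest. Wild type females had 323, 151 and 163 CPM in controls and 281, 321 and 319 CPM with succinate. Ptk6-/- females had 129.7, 182 and 264 CPM in controls and 183, 215 and 339.5 CPM with succinate. Succinate and control libraries overlapped in all 4 combinations of sex and genotype. Its log2 fold change with succinate was 0.38 (SE 0.39), -0.32 (SE 0.42), 0.55 (SE 0.36) and 0.34 (SE 0.38) in wild type males, Ptk6-/- males, wild type females and Ptk6-/- females. Without the library that stood apart it was 0.09 in wild type males, -0.01 in Ptk6-/- males and 0.53 in wild type females. The 95% interval of the average over groups ran from -0.22 to 0.68. Reads of Slc28a2 could be shared with its near copy Slc28a2b and with Gm14086 on the same strand, which makes its level uncertain. Slc28a2b was also the gene most like it over the 24 libraries (r = 0.85), followed by Palld (0.81).

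Slc28a3, the transporter with the broadest choice of nucleosides, lay at chr13:58693213-58758691 on the minus strand and had log2 fold changes of the opposite sign from Slc28a1 in females. In Ptk6-/- females it had 20.5, 27.0 and 26.7 CPM in controls and 11.7, 8.94 and 11.5 CPM with succinate, and the libraries did not overlap. In wild type females it had 16.1, 20.1 and 11.6 CPM in controls and 8.97, 7.04 and 14.1 CPM with succinate, where replicate 3 with succinate lay within the controls. Wild type males had 14.8, 19.2 and 19.1 CPM in controls and 20.6, 18.5 and 14.4 CPM with succinate. Ptk6-/- males had 23.3, 20.9 and 27.5 CPM in controls and 29.1, 21.4 and 26.3 CPM with succinate, and both pairs overlapped. The log2 fold change was -1.24 (SE 0.25) in Ptk6-/- females and -0.65 (SE 0.36) in wild type females, beside 0.00 (SE 0.21) and 0.13 (SE 0.23) in wild type and Ptk6-/- males. In Ptk6-/- females its adjusted p was 0.240 in the edgeR fit of those 6 libraries, and DESeq2, voom and edgeR's fit of all 24 libraries, in which 0.608% of all genes were called, called it.

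Slc28a3 was also compared by sex and genotype. Averaged over genotype and treatment its log2 difference of females minus males was -0.55 (SE 0.13), with an adjusted p of 0.0641 in edgeR, and it was -0.48 without the 3 libraries. Of the 9 genes none was called in this sex comparison by edgeR, where 0.360% of all genes were, or by DESeq2 or voom, and 5 had an unadjusted p under 0.05 in edgeR, beside 15.3% of all genes. Averaged over sex and treatment the difference of Ptk6-/- minus wild type was 0.42 (SE 0.13), with an adjusted p of 0.284 in edgeR. Every Ptk6-/- control library lay above every wild type control library in each sex, at 20.9 CPM or more against 19.2 CPM or less in males and 20.5 CPM or more against 20.1 CPM or less in females. Over the 24 libraries log2 CPM of Slc28a3 had r = -0.80 with Slc28a1 and r = -0.80 with the tuft marker sum. The named genes most like it were Dmbt1 (0.93) and Zc3h12a (0.88).

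The makeup of the SLC28 family differed with these levels. Slc28a1 made up 5.98% to 18.9% of the summed FPKM of the 3 genes in wild type male controls and 22.3% to 43.0% with succinate, where 8.56% was the highest control share without the library rich in Rn18s-rs5. In wild type females it made up 4.97% to 19.7% in controls and 27.7% to 44.0% with succinate, and in Ptk6-/- females 2.77% to 3.51% and 33.5% to 43.3%. In Ptk6-/- males it made up 1.81% to 9.39% in controls and 2.45% to 12.7% with succinate, where the ranges overlapped. Slc28a2 held most of the sum in every library, and Slc28a3 held 0.780% to 13.2%, or 0.935% to 7.49% without the 3 libraries that stood apart.

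**Figure D4:**
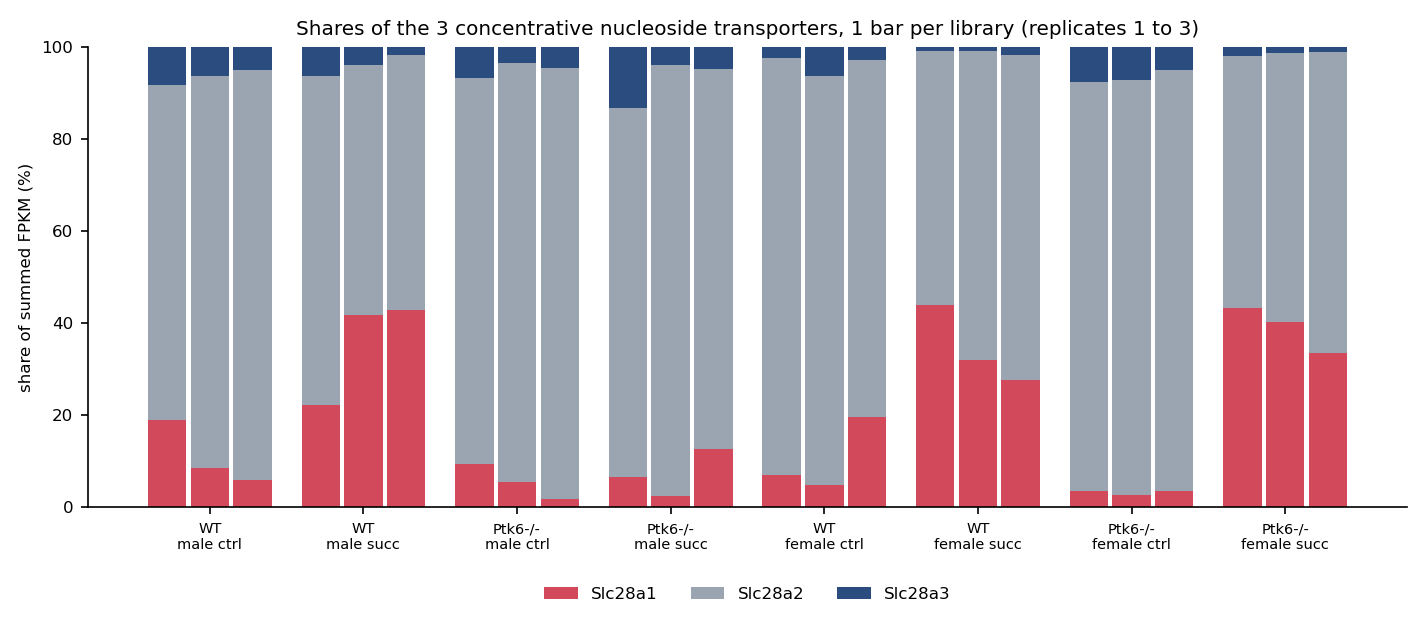
Each bar splits the summed FPKM of Slc28a1, Slc28a2 and Slc28a3 of 1 library into percent shares, with the 3 libraries of a group side by side. The Slc28a1 share is 2.77% to 3.51% in Ptk6-/- female controls, 33.5% to 43.3% in Ptk6-/- females on succinate and 2.45% to 12.7% in Ptk6-/- males on succinate.

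Slc29a1, the equilibrative transporter that lets nucleosides leave or enter along their gradient, lay at chr17:45896126-45910532 on the minus strand. It had 25.002, 24.5 and 22.4 CPM in Ptk6-/- male controls and 16.2, 18.3 and 19.0 CPM with succinate, without overlap, and a log2 fold change of -0.40 (SE 0.19). The 16.2 CPM came from the library rich in Rn18s-rs5, with 59 raw counts. The change of log2 CPM per doubling of gene length did not overlap there either (0.143 to 0.216 in controls and -0.186 to 0.0741 with succinate). The heart marker sum was higher and the proximal small intestine sum lower throughout. Their part in the level of Slc29a1 was not tested. Wild type males had 20.0, 25.3 and 26.6 CPM in controls and 22.4, 26.7 and 25.5 CPM with succinate, with overlap. Wild type females had 25.3, 27.8 and 24.6 CPM in controls and 31.4, 43.0 and 24.1 CPM with succinate. Ptk6-/- females had 22.9, 19.1 and 29.0 CPM in controls and 23.4, 19.1 and 18.043 CPM with succinate, and the groups overlapped in both female genotypes. Its highest value came from the library labelled wild type female succinate replicate 2, which held the heart markers. Among succinate mice every Ptk6-/- library lay below every wild type library in both sexes, with log2 fold changes of -0.45 (SE 0.26) in males and -0.69 (SE 0.29) in females (-0.48 without that library). None of these passed over all genes, with adjusted p-values in edgeR of 0.600, 1.000 and 0.931. The named genes most like it were Robo4 (r = 0.82) and Tie1 (0.81), both endothelial genes, with 0.63 and 0.69 without the 3 libraries.

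The ectoenzymes Enpp3, which hydrolyses extracellular nucleotides, and Nt5e (CD73), which makes adenosine from AMP, varied together, with r = 0.82 over the 24 libraries and 0.73 without the 3 libraries that stood apart. Enpp3 lay at chr10:24648304-24718721 and Nt5e at chr9:88209250-88254145. Enpp3 had 103, 39.4 and 75.6 CPM in wild type female controls and 102, 96.7 and 132 CPM with succinate. Ptk6-/- females had 58.7, 70.1 and 61.8 CPM in controls and 103, 58.5 and 167 CPM with succinate. In wild type females 1 succinate library lay above all controls, and in Ptk6-/- females 2 did and the third lay below them. Its log2 fold change was 0.62 (SE 0.37) and 0.76 (SE 0.39) in wild type and Ptk6-/- females and 0.19 (SE 0.26) and -0.22 (SE 0.49) in wild type and Ptk6-/- males. Wild type males had 37.4, 63.8 and 65.3 CPM in controls and 49.0, 76.7 and 65.2 CPM with succinate, and Ptk6-/- males 62.7, 60.3 and 80.9 CPM in controls and 16.7, 70.8 and 86.7 CPM with succinate. Its lowest library was replicate 1 of the Ptk6-/- males on succinate at 16.7 CPM, and without it the value in Ptk6-/- males was 0.19. Mtus1 (0.89) and Elmo2 (0.86) were the genes most like Enpp3, and Eef2k (0.85) and Enpp3 those most like Nt5e.

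Nt5e had 19.3, 30.1 and 35.9 CPM in wild type male controls and 37.9, 40.1 and 49.5 CPM with succinate, the 1 pair of groups in which succinate libraries all lay above controls, with a log2 fold change of 0.58 (SE 0.25). Ptk6-/- males had 43.4, 35.8 and 45.3 CPM in controls and 13.7, 68.2 and 37.7 CPM with succinate. Wild type females had 124, 27.1 and 43.3 CPM in controls and 46.8, 46.0 and 100.3 CPM with succinate. In Ptk6-/- males the succinate libraries lay below, among and above the controls, and in wild type females they lay between the controls. Ptk6-/- females had 39.9, 58.6 and 21.6 CPM in controls and 41.8, 47.2 and 110.5 CPM with succinate. The wild type male difference was 0.39 without replicate 1 of the controls, whose 19.3 CPM was the lowest of the 3. In wild type female controls replicate 1 stood at 124 CPM, above every other library, and leaving it out moved the succinate difference from 0.01 to 0.89.

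Ada, the deaminase that turns adenosine into inosine, lay at chr2:163568504-163592159 on the minus strand. In Ptk6-/- males it had 272, 303 and 313 CPM in controls and 419, 429 and 389 CPM with succinate, without overlap, and a log2 fold change of 0.52 (SE 0.22). Relative to the mean of the 24 libraries, log2 CPM changed by 0.143 to 0.216 per doubling of gene length in these controls and by -0.186 to 0.0741 with succinate, without overlap, and with a gene length offset in the fit the value was 0.28. The heart marker sum was also higher with succinate there, at 16.8 to 29.0 against 8.41 to 15.5 FPKM (4 of 5 genes). The proximal small intestine sum was lower, at 2.71 to 26.4 against 28.9 to 38.2 FPKM (2 of 5 genes). The part of these markers was not tested. Ada overlapped in the other 3 combinations. In wild type males Ada had 201, 376 and 431 CPM in controls and 187, 509 and 650.0 CPM with succinate, with a log2 fold change of 0.42 (SE 0.47). Wild type females had 930.2, 386 and 353 CPM in controls and 587, 437 and 551 CPM with succinate, with -0.06 (SE 0.44). Ptk6-/- females had 269.8, 238 and 399.5 CPM in controls and 318, 202 and 417 CPM with succinate, with 0.02 (SE 0.37). Among females on succinate every Ptk6-/- library lay below every wild type library, with a log2 fold change of -0.75 (SE 0.38). There the enterocyte marker sum was also lower, at 6690.1 to 9189.8 against 11154 to 13978 FPKM (0 of 10 genes lower throughout), and the crypt and cycling sum higher, at 140.5 to 151 against 33.6 to 73.9 (1 of 5), and their part in the level of Ada was not tested. Averaged over sex and treatment the difference of Ptk6-/- minus wild type was -0.48 (SE 0.21), with an adjusted p of 0.346 in edgeR, and -0.26 with the length offset. Apol9b (r = 0.80) and Keap1 (0.78) were most like it.

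Pnp, the phosphorylase that splits inosine and guanosine into bases, lay at chr14:51168539-51190869 on the plus strand. It had 402, 475 and 422 CPM in wild type female controls and 284, 181 and 304 CPM with succinate, without overlap, and a log2 fold change of -0.74 (SE 0.31), which was -0.53 without the library with heart markers. The other combinations overlapped. Ptk6-/- females had 253, 274 and 446 CPM in controls and 253, 298 and 192 CPM with succinate, a log2 fold change of -0.41 (SE 0.34). Wild type males had 313, 331 and 324 CPM in controls and 262, 468 and 374 CPM with succinate, with 0.18 (SE 0.25). Ptk6-/- males had 213, 281 and 331 CPM in controls and 214, 386 and 405 CPM with succinate, with 0.31 (SE 0.29). Its near copy Pnp2, with which reads could be split, had -0.68, -0.24, 0.25 and 0.60 in wild type females, Ptk6-/- females, wild type males and Ptk6-/- males. Log2 CPM of Pnp had r = 0.81 with the T cell, 0.78 with the enterocyte and 0.68 with the ileum marker sum over the 24 libraries. In wild type females all 3 sums were also lower with succinate, at 67.4 to 144 FPKM in controls and 21.5 to 50.6 with succinate for T cells, 19574 to 23915 and 11154 to 13978 for enterocytes, and 2342 to 4543 and 1049 to 2303 for ileum (1911 to 2303 without the library with heart markers), with 2 of 4, 3 of 10 and 2 of 4 genes lower throughout. Their part in the level of Pnp was not tested. Sult1b1 (r = 0.93) and Rassf7 (0.92) were most like it.

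Xdh, whose product oxidizes hypoxanthine and xanthine to urate, lay at chr17:74190890-74257191 on the minus strand and had a negative log2 fold change with succinate in all 4 combinations of sex and genotype. In Ptk6-/- females it had 407, 630.5 and 330.2 CPM in controls and 235, 68.8 and 214 CPM with succinate, without overlap, and a log2 fold change of -1.43 (SE 0.50). Wild type males had 331, 389 and 443 CPM in controls and 476, 163 and 155 CPM with succinate, where replicate 1 with succinate lay above the controls and the other 2 below. The value there was -0.56 (SE 0.44), and without that replicate it was -1.33 with an adjusted p of 0.00543 in edgeR, past both thresholds with 5.80% of all genes. That replicate also differed from the other 2 succinate libraries in the change of log2 CPM per doubling of gene length (0.166 against -0.159 and -0.120). Ptk6-/- males had 453, 603 and 712 CPM in controls and 171, 620.2 and 518 CPM with succinate, a log2 fold change of -0.42 (SE 0.44). Wild type females had 406, 185 and 247 CPM in controls and 109, 143 and 388 CPM with succinate, with -0.37 (SE 0.53), and both pairs overlapped. In Ptk6-/- males the value was -0.07 without replicate 1 of the succinate mice, the library with the lowest total. The average over groups was -0.69 (SE 0.28), with an adjusted p of 0.231 in edgeR.

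Log2 CPM of Xdh had r = -0.66 with Slc28a1 and r = 0.68 with Slc28a3 over the 24 libraries. It had r = -0.73 with the summed goblet markers and r = 0.76 with the summed proximal small intestine markers, which were 28.8 to 34.1 FPKM in Ptk6-/- female controls and 6.57 to 18.3 with succinate, and 28.9 to 38.2 and 2.71 to 26.4 in Ptk6-/- males. The lowest of these was replicate 1 of the Ptk6-/- males on succinate, rich in Rn18s-rs5, and the other 2 held 24.6 to 26.4 FPKM. The sum of the goblet markers overlapped between succinate and control mice in both sexes of this genotype. One by one, 4 of 8 goblet genes were higher and 1 lower throughout in males, and 3 of 8 higher and 2 lower in females. The part of these cells and of position along the intestine in the level of Xdh was not tested. Elmo1 and Znfx1 were most like Xdh (r = 0.97 for both), with 0.98 and 0.98 without the 3 libraries.

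Between genotypes, none of the 9 genes was called in control males, where 0.739% of all genes were, in control females (0.0158%), in males or females on succinate (0% and 0%), or in the average over groups (0.0184%) by edgeR. Unadjusted p-values under 0.05 were found for 4, 2, 1, 1 and 4 of the 9 in this order, beside 25.2%, 11.1%, 2.72%, 4.52% and 13.4% of all genes. DESeq2 called Slc28a1 in the average over groups, beside 0.172% of all genes. Voom called Slc28a1 there (6.97%) and in control females (10.3%), Slc28a1 and Xdh in males on succinate (9.36%) and Slc28a2 in control males (2.96%). In control males Xdh had a log2 fold change, Ptk6-/- over wild type, of 0.59 (SE 0.19), Nt5e of 0.53 (SE 0.20) and Slc28a3 of 0.41 (SE 0.15), and these were the 3 genes of 9 whose libraries did not overlap, against 32.7% of all genes. For Nt5e this held by a narrow margin and only in CPM normalized within those 6 libraries (36.0 CPM for the lowest Ptk6-/- and 35.3 CPM for the highest wild type library), while 35.8 and 35.9 CPM overlapped when normalized over the 24 libraries. No other non-overlap of the 9 genes differed between these scalings. In the same comparison the proximal small intestine marker sum was higher in every Ptk6-/- library, at 28.9 to 38.2 against 11.8 to 26.4 FPKM (2 of 4 genes higher throughout). Without the library rich in Rn18s-rs5 the wild type range was 25.8 to 26.4 FPKM. The change of log2 CPM per doubling of gene length was higher as well, at 0.143 to 0.216 against -0.0443 to 0.00559. With the length offset the log2 fold change was 0.35 for Xdh, 0.29 for Nt5e and 0.19 for Slc28a3, and 0.276% of all genes were called. The part of intestinal position in these differences was not tested. Slc28a2 had 0.97 (SE 0.35) there, with an adjusted p of 0.131 in edgeR, and 0.69 without replicate 1 of the wild type controls. In control females 1 gene (Slc28a3, 0.67 (SE 0.27)) had libraries that did not overlap, against 18.9%. Among succinate mice the counts were 3 in males (Slc28a1, Slc28a3 and Slc29a1) against 8.83% and 2 in females (Ada and Slc29a1) against 10.5%. The average over groups for Slc28a1 was -1.16 (SE 0.31), with an adjusted p of 0.258 in edgeR that was 0.0373 without replicate 1 of the wild type males on succinate.

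The other genes of nucleoside and purine metabolism were read from a list of 76 genes drawn up by role, of which 75 were in the table and 71 passed the filter on low counts over the 24 libraries. None was called at both thresholds in any of the 14 comparisons by edgeR, while 2 to 16 (2.86% to 22.5%) had an unadjusted p under 0.05, beside 2.72% to 25.2% of all genes. DESeq2 called at most 1. Voom called at most 9, in control females, or 13.0% beside 10.3% of all genes. In the average succinate effect 35 had a positive and 36 a negative log2 fold change, with a median of -0.01 beside -0.00245 over all genes. By role, 4 of 6 further transporter genes for nucleosides and bases had a negative value, as did 8 of 10 ectonucleotidases and phosphatases, 4 of 6 deaminases and 3 of 5 nucleoside phosphorylases. A positive value was found for 5 of 6 intracellular nucleotidases, 6 of 10 salvage enzymes, 9 of 13 genes of purine synthesis, 3 of 4 adenosine receptor genes, 3 of 5 genes of oxidation to urate and beyond and 1 of 2 genes of pyrimidine breakdown. All 4 urate transporter genes had negative values, with -0.60 (SE 0.21) for Slc17a4, -0.51 (SE 0.20) for Slc2a9 and -0.13 (SE 0.21) for Abcc4. Abcg2, which exports urate, had -0.46 (SE 0.15) with an adjusted p of 0.143 in edgeR, and in wild type females it had 169 ± 7.61 CPM in controls and 76.9 ± 25.5 CPM with succinate (SD, n = 3).

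Upp1, which splits uridine into uracil and ribose phosphate, was the 1 gene of the list with an adjusted p under 0.05 in that average (0.0293 in edgeR, beside 1.03% of all genes under 0.05), and its fold change of 1.82 downward was under the threshold of 2. In wild type and Ptk6-/- females DESeq2 called Upp1 at both thresholds (adjusted p = 7.26e-05 and 0.00579), as did edgeR's fit of all 24 libraries (0.0311 and 0.0245), which called 0.401% and 0.608% of all genes. The adjusted p was not under 0.05 in 13 of 24 fits that left out 1 library, with at most 0.0678 in edgeR. It had 169 ± 11.007 CPM in wild type male controls and 109.7 ± 13.3 CPM with succinate, 210.2 ± 57.9 and 53.0 ± 16.2 CPM in wild type females, and 179.5 ± 97.2 and 48.3 ± 19.6 CPM in Ptk6-/- females (SD, n = 3), and every succinate library lay below every control library in each. In Ptk6-/- males it had 127 ± 44.1 CPM in controls and 261 ± 107 CPM with succinate, with every succinate library above every control library. The log2 fold change was -0.64 (SE 0.19), -1.97 (SE 0.35) and -1.92 (SE 0.46) in the first 3 and 1.11 (SE 0.41) in Ptk6-/- males, where it was 0.63 without replicate 1 of the succinate mice. The difference between genotypes in males was 1.73 (SE 0.46), with an adjusted p of 0.992 in edgeR over all genes. In Ptk6-/- males 23.8% of all genes tested had succinate and control libraries that did not overlap. The change of log2 CPM per doubling of gene length did not overlap there either, at 0.143 to 0.216 in controls and -0.186 to 0.0741 with succinate. Its part in the level of Upp1 was not tested.

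**Figure D5:**
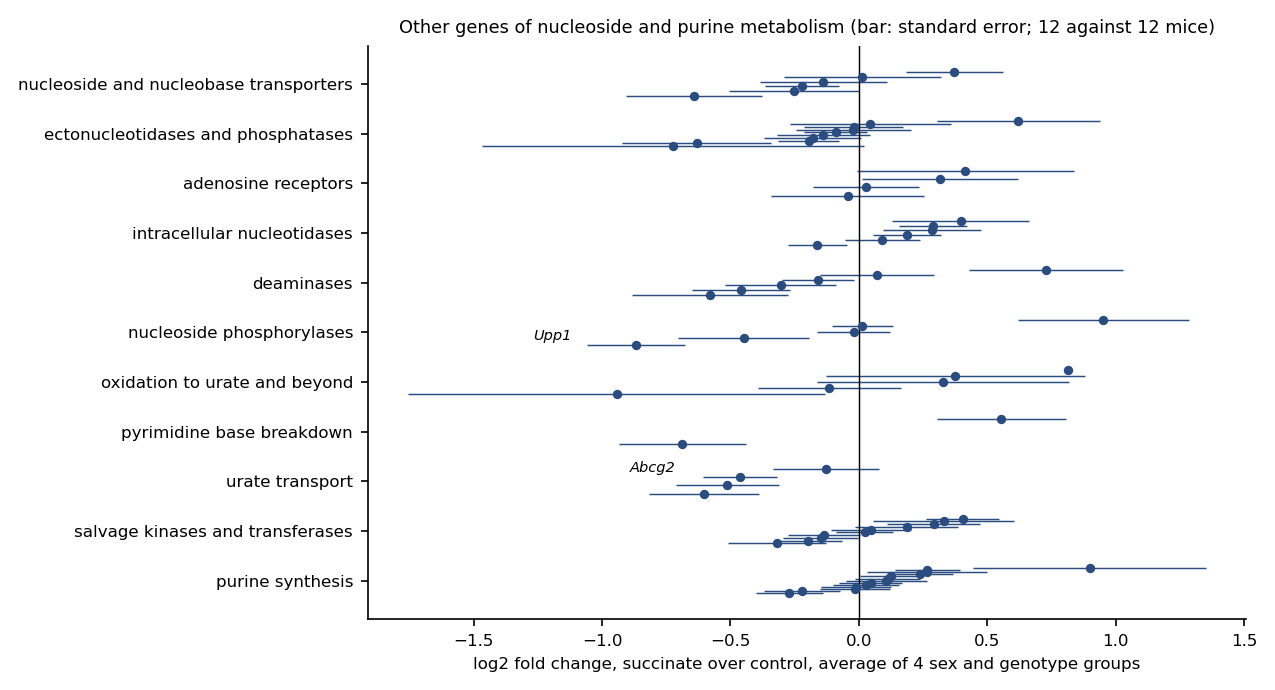
The log2 fold change between succinate and control mice, averaged over the 4 combinations of sex and genotype, is plotted with its standard error for 71 genes in 11 roles; 1 gene, Aox3, had no counts in whole groups and is drawn without a bar. Upp1 lies at -0.87 and Abcg2 at -0.46, and the 4 urate transporter genes lie left of 0.

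Of the same list, 3 genes had an adjusted p under 0.05 between genotypes in control males, beside 4.23% of all genes, and all with a fold change under 2. Their adjusted p was not under 0.05 in 5 of 6, 5 of 6 and 4 of 6 fits that left out 1 library (Ampd3, Nt5c and Impdh2, up to 0.125, 0.125 and 0.153 in edgeR). With the length offset in edgeR it was 0.0645, 0.123 and 0.0846. Ampd3, an AMP deaminase, had 10.9 ± 2.26 CPM in wild type and 20.0 ± 1.88 CPM in Ptk6-/- mice (SD, n = 3), a log2 fold change of 0.86 (SE 0.16) with an adjusted p of 0.0364 in edgeR. Nt5c, a nucleotidase, had 84.6 ± 7.12 and 51.8 ± 7.17 CPM, a log2 fold change of -0.73 (SE 0.15) with an adjusted p of 0.0384 in edgeR. Impdh2, a dehydrogenase of guanine nucleotide synthesis, had 55.1 ± 6.62 and 36.7 ± 3.72 CPM, a log2 fold change of -0.60 (SE 0.13) with an adjusted p of 0.0410 in edgeR. In control females Ampd3 had 1.26 (SE 0.26) with an adjusted p of 0.367 in edgeR, and Dctd, a deoxycytidylate deaminase, 1.29 (SE 0.31) at 5.43 CPM or less. There DESeq2 called Ampd3 (adjusted p = 0.0217). Voom called Ampd3 (0.0140) and Dctd (0.0153), beside 10.3% of all genes. Without replicate 3 of the Ptk6-/- controls edgeR called both (0.0275 and 0.0422). Over sexes, the adenosine receptor gene Adora2b had 1.27 (SE 0.31) for females minus males, with an adjusted p of 0.0678 in edgeR, and stood at 5.08 ± 2.08 CPM in Ptk6-/- females on succinate against 1.8989 ± 0.616 CPM in their controls.

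The remaining genes that the naming rule took from this list did not pass at an adjusted p under 0.05 in edgeR's fits of all libraries of a comparison. The urate transporter gene Slc2a9 had -0.70 (SE 0.21) with succinate in wild type males and Abcg2 -1.12 (SE 0.30) in wild type females. With 1 library left out, their lowest adjusted p in edgeR was 0.0130 and 0.0282. Ampd3 had -0.99 (SE 0.25) in Ptk6-/- males and Adora2b 1.39 (SE 0.43) in Ptk6-/- females. Between genotypes on succinate, Impdh2 had -0.88 (SE 0.32) in males, and Dck, the deoxycytidine kinase, had 0.93 (SE 0.27) in females. Aox1, an aldehyde oxidase, had -3.63 (SE 1.31) in females, with wild type libraries at 0.393, 2.03 and 19.6 CPM, and -1.09 without the highest of these, the library with heart markers. Among the interactions, Pfas, an enzyme of purine synthesis, had -0.83 (SE 0.32) in males and Slc29a3 -1.07 (SE 0.41) and Aox1 -4.21 (SE 1.497) in females, the latter -1.67 without that library. Dck had 1.78 (SE 0.63) and Slc29a4 -2.53 (SE 0.99) in the difference between sexes. Averaged over sex and treatment, Impdh2 had -0.40 (SE 0.14) between genotypes, and Aox3 was at 0.410 CPM or less in every library. Upp1 had -0.67 (SE 0.19) for females minus males.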

How the data were processed

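RNA from the distal jejunum of 24 mice was sequenced after poly(A) selection with a stranded kit. Per the study's methods, the authors trimmed reads with Cutadapt, checked them with FastQC, aligned them with HISAT2, assembled transcripts with StringTie and estimated levels with StringTie and ballgown. The submitters' processing notes name the build GRCm39. The deposited values are counts per gene, whole numbers that were not normalized, and FPKM per gene, which the authors scaled by transcript length and library depth. FPKM was used to compare genes, to sum markers and in the limma fits on FPKM named below, and counts for every other test.

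The 9 genes and all gene lists were chosen with earlier results of these data known. Groups came from the labels. A gene was tested if 3 or more of the libraries fitted held 10 or more counts of it, with edgeR 4.0.16 (R 4.3.3): TMM normalization, quasi-likelihood test, Benjamini-Hochberg adjustment over all genes tested, called at an adjusted p under 0.05 and a fold change of at least 2. All 9 genes passed this filter in every comparison. Each comparison of groups was fitted on its own 6 libraries, each interaction within a sex on 12, and the averages and the sex interaction on all 24. The smallest p of an exact test of 3 against 3 mice is 0.1, so single genes were not tested that way. Log2 CPM for correlations used a prior count of 2.

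Besides the 9 genes, the text names every pathway gene called in a comparison or else the 2 with the smallest p, the 8 genes most correlated with Slc28a1 and the 2 most correlated with each other gene (mean of at least 1 CPM, no Gm or Rik symbols). Values for Slc17a4, Abcc4 and the near copy Pnp2 were added after they were seen, as were Impdh2 in control males and Cda with 1 library left out, named for their adjusted p.

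Alternatives were DESeq2 1.42.0, voom with sample quality weights (limma 3.58.1), limma on log2(FPKM + 1) and log2(FPKM + 0.1) for genes with a mean of at least 0.5 FPKM, other size factors, 2 other filters, a gene length offset, a replicate block, all 24 libraries in 1 fit, and leaving out each library in turn. A fit without the 3 libraries that stood apart was added after seeing the data. Levels are relative to the RNA of the whole tissue. Reads shared between near copies or overlapping genes (Slc28a2 and Slc28a2b, Pnp and Pnp2, Xdh and Gm18068) may be split by the authors' counting. Promoter windows were read from RefSeq sequences of GRCm38.p6 and matched by symbol, and no coordinates were compared between builds. Figures were drawn with matplotlib 3.10.9.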

Additional observations from a re-analysis of the deposited data

Results flagged for a closer look

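Of the pathway genes tested in all 4 combinations of sex and genotype, 8 of 69 had succinate libraries all above the controls in 1 combination and all below them in another, beside 4.17% of all genes. Between genotypes 2 of 69 did so, beside 3.08% of all genes. Values are given for those among the genes named above. Upp1 had log2 fold changes with succinate of -0.64 in wild type males, -1.97 in wild type females and -1.92 in Ptk6-/- females against 1.11 in Ptk6-/- males. The genotype difference in males was 1.73 (SE 0.46), with an adjusted p of 0.992 in edgeR. The difference of the genotype differences between the sexes was -1.56 (SE 0.76), with an adjusted p of 0.830 in edgeR.

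Ampd3 had -0.99 with succinate in Ptk6-/- males and 0.78 in wild type females. Adora2b had -0.73 in wild type males against 0.82 and 1.39 in wild type and Ptk6-/- females. Differences across both sex and genotype at once, and between the sexes within a genotype, were not tested. Dck had -0.33 in wild type females against 0.45 in wild type males and 0.50 in Ptk6-/- females. The genotype difference of Dck in females was 0.85 (SE 0.41), with an adjusted p of 0.752 in edgeR. Pfas had -0.51 in Ptk6-/- males against 0.33 in wild type males and 0.39 in Ptk6-/- females, and the genotype difference in males was -0.83 (SE 0.32), with an adjusted p of 0.993 in edgeR.

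Between genotypes, Dck had -0.85 in males on succinate and 0.93 in females on succinate, a difference between the sexes that was not tested. Slc29a4 had 0.53 in control females and -1.07 in females on succinate, and their difference was -1.57 (SE 0.63), with an adjusted p of 0.752 in edgeR. The opposite directions of Upp1, Ampd3 and Pfas rest on the Ptk6-/- males. There the change of log2 CPM per doubling of gene length also did not overlap between succinate and control mice. Its part in these values was not tested. None of the differences tested passed over all genes. These genes were named by the smallest p in a comparison, which favours values far from 0.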

How the results depend on the processing

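Across all alternatives, 2865 of 2970 log2 fold changes of the 9 genes moved by less than their spread, 105 moved by more, and 0 called values turned direction. Counts of called genes among the 9 moved in 23 of 330 cases and those of the pathway list in 19 of 330. The causes were not tested. The log2 fold change of Slc28a1 with succinate in Ptk6-/- females was 3.88 with limma on log2(FPKM + 1). In Ptk6-/- males it ranged from -0.86 to 0.75 when 1 library was left out, the lowest without replicate 3 on succinate.

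For the succinate effect, edgeR called 1 of the 9 genes in Ptk6-/- females, while DESeq2, voom and the fit of all 24 libraries called 2, the replicate block, with or without the length offset, called 0, and leaving out 1 library gave 0 to 1. Wild type females had 0, and 1 with DESeq2, with 0 to 1 when 1 library was left out. Wild type males had 0, and 1 with DESeq2 and with both FPKM fits (beside 0.909% of all genes at a pseudocount of 1 and 0.916% at 0.1), 2 with voom, and 0 to 2 when 1 library was left out. For the genotype effect edgeR called 0, while DESeq2 and voom called 1 in the average over groups, voom called 1 in control females and in control males and 2 in males on succinate, and leaving out 1 library gave 0 to 1 in control females. In the average, Slc28a1 was called without replicate 1 of the wild type males on succinate (adjusted p = 0.0373 in edgeR).

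For the pathway list, where edgeR called 0 throughout, DESeq2 called 1 for succinate in wild type and Ptk6-/- females, for genotype in control males and control females, and for sex (beside 0.952%, 1.44%, 0.920%, 0.599% and 0.946% of all genes). The gene was Upp1 for succinate and Adora2b for sex. The fit of all 24 libraries called 1, Upp1, for succinate in wild type and Ptk6-/- females (0.401% and 0.608% of all genes), and limma on log2(FPKM + 0.1) and voom called 1, Adora2b, for sex (0.468% and 1.32%). Voom called 6 for succinate in wild type males (8.70% of the list beside 7.85% of all genes), 6 for genotype in males on succinate (8.57% beside 9.36%), 9 in control females (13.0% beside 10.3%) and 3 in the average over groups (4.23% beside 6.97%). Leaving out 1 library gave 0 to 5 for succinate in wild type males (5 without replicate 1 on succinate, 7.35% beside 5.80%) and wild type females (5 without replicate 3 on succinate, 7.25% beside 3.23%), and 0 to 8 for genotype in control females (8 without replicate 3 of the Ptk6-/- controls, 11.6% beside 9.65%). For sex, Adora2b was called without replicate 3 of the Ptk6-/- males on succinate (adjusted p = 1.97e-04 in edgeR). It was also called without replicate 3 of the wild type females on succinate (0.0268). For the average succinate effect, Cda, a cytidine deaminase, was called without replicate 3 of the Ptk6-/- female controls (0.0271).

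The replicate numbers are shared between groups, and the labels do not say that they pair the mice. Same-numbered libraries had correlations of their deviations from -0.58 to 0.42, and in none of 8 comparisons were all 3 pairs over 0.1. With 3 libraries per group these correlations cannot decide whether the numbers share a batch. With the replicate block the log2 fold change of Slc28a1 in Ptk6-/- females was 4.53 (adjusted p = 0.196 in edgeR), and 0.107 was the adjusted p with the block and the length offset. The block changed no other call of the 9 genes. The lowest raw count of Slc28a1, in replicate 1 of the Ptk6-/- males on succinate, was 20, so that library gives the least precise level.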
